A study of Mus musculus with 33 samples.

Results

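Quadriceps muscle of Actn3 knockout (KO) mice was compared 24 h after 1 intraperitoneal injection of dexamethasone at 20 mg/kg with the same muscle 24 h after saline. The samples were chosen by their genotype, treatment and time labels, which gave 8 of the 33 libraries of the series, 5 after dexamethasone and 3 after saline. All came from adult male C57BL6 mice, and both groups carry the Actn3 deletion, so the contrast is the effect of the drug in muscle that lacks alpha-actinin-3, the actin crosslinker of the Z-disc in fast fibres. How the allele was made is not given in the sources used here. The other groups used below are KO mice 3 h after dexamethasone or saline (5 and 3 libraries) and wild-type (WT) mice 24 h after dexamethasone or saline (5 and 4 libraries), with the same dose and route. Whether every library stands for its own mouse is not stated in the labels, so the p-values measure the spread between libraries, which may in part be technical. Replicate numbers follow the order of the sample records and only name a library.

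Dexamethasone is a synthetic glucocorticoid. It binds the glucocorticoid receptor, a hormone-activated transcription factor held ready in the cytosol by chaperones, which then moves to the nucleus and raises or lowers the transcription of its targets. In skeletal muscle glucocorticoids are known for raising protein breakdown through the ubiquitin-proteasome system and autophagy, for opposing insulin and insulin-like growth factor signals, and in other tissues for dampening inflammation and matrix production. The feedback genes that the receptor switches on within hours include inhibitors of its own signal, which makes a day after a single dose a late time point.

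Read counts per gene were compared as CPM, counts scaled by library totals that were adjusted with TMM factors. These factors ran from 0.935 to 1.08 in the 8 libraries. Sums over marker genes, here and below, are CPM of library totals without the factors. Gene counts ran from 19.7 M to 42.8 M per library, and no pair of the 8 libraries was alike to within sampling noise. Actn3, the targeted gene, stood at 51.3, 63 and 65.9 CPM after saline and 43.3, 55, 53, 31.9 and 51 CPM after dexamethasone, against a mean of 8170 ± 825 CPM (SD, n = 4) in WT saline muscle, so all 8 libraries bear out the knockout label. Its dexamethasone difference did not pass the test (log2 fold change -0.36 ± 0.14, adjusted p = 0.106). Skeletal muscle fibre markers summed to between 158428 and 191713 CPM in the 8 libraries, and 3 haemoglobin genes (Hba-a1, Hba-a2 and Hbb-b1) were listed at 0 in all 8. Dexamethasone replicates 4 and 5 have library names that begin ML1716, and the other 6 names begin ML1715; nothing in the labels says what this number marks. These 2 libraries stood at 26.1 and 20.7 on the first principal component, beyond the other 3 dexamethasone libraries at 4.7 to 5.6 and the saline libraries at -23.4 to -18.1. In dexamethasone replicate 5, Rn45s (the ribosomal RNA precursor) held 11.0% of the counts, against 1.91% to 4.19% in the others. Since no KO saline library of 24 h is named ML1716, values without the ML1716 libraries (5 in the whole series, among them 1 WT saline library) are given below beside the groups of genes whose counts or calls change without them.

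**Figure D1:**
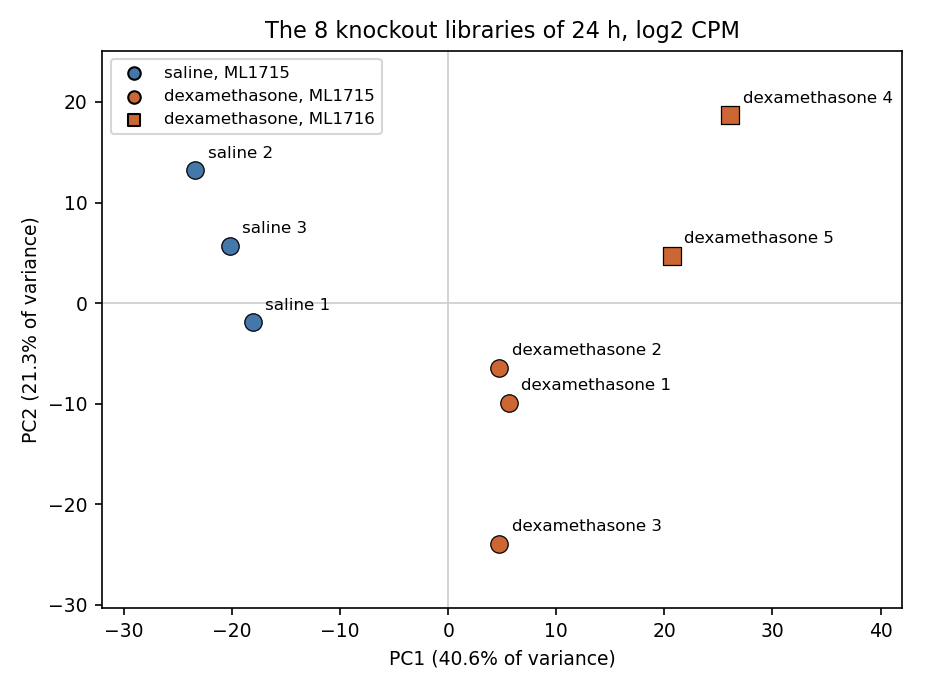
Principal components of log2 CPM in the 8 knockout libraries of 24 h (10953 genes), with the share of variance on each axis; circles are libraries named ML1715 and squares those named ML1716. The saline libraries (blue) lie left of the dexamethasone libraries (orange) on the first component, and the 2 ML1716 libraries lie farthest right.

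The promoters of 4 genes that rose are shown because each holds letters that belong to the factor or pathway it is known for. They are the RefSeq sequences of build GRCm38.p6, 250 bases up to the start of the gene, written 5′ to 3′ on the strand of the gene. Capitals mark ACANNNTGT, the core spacing of a glucocorticoid receptor palindrome, in the first pair (Lcn2 at chr2:32387740-32387989, minus strand, and Trim63 at chr4:134314870-134315119, plus strand). In the second pair (Hspa1a at chr17:34972157-34972406, minus strand, and Hspb1 at chr5:135887669-135887918, plus strand) they mark GAANNTTC, a pair of head-to-head units of the heat shock factor element.
Lcn2: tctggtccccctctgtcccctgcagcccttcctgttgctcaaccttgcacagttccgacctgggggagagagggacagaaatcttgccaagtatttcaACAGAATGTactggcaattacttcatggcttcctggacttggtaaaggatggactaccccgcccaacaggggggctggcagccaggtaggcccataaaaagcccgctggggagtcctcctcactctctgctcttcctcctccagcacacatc
Trim63: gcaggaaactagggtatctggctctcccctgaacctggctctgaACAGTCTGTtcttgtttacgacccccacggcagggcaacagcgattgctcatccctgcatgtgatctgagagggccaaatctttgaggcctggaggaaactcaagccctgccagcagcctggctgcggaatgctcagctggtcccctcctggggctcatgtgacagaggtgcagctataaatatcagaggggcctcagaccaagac
Hspa1a: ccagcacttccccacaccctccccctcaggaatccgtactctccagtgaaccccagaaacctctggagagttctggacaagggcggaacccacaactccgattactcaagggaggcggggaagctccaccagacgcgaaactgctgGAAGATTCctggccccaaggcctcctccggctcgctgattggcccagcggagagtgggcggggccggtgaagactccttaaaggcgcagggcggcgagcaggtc
Hspb1: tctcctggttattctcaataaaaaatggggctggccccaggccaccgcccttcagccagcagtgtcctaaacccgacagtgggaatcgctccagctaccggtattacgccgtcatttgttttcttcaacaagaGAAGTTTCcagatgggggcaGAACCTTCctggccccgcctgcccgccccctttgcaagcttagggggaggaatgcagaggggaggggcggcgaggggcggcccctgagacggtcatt
The receptor motif begins 152 bases before the start in Lcn2 and 206 bases before it in Trim63, and the heat shock motif 104 bases before it in Hspa1a and 117 and 97 bases before it in Hspb1. Searched on both strands of the 250 bases before and 50 bases after each start, ACANNNTGT was held by 6.85% of all 32851 promoters in the table and GAANNTTC by 7.86%. Of the glucocorticoid target list used below, 28 of 34 symbols had a promoter in the table and 6 of these held ACANNNTGT (21.4%, against 7.9% of all 27025 symbols). Of these 6, 2 rose and 2 fell, where 10 of the 28 were called. Of the heat shock list, 45 symbols had one and 14 held GAANNTTC (31.1%, against 9.04% of all symbols). Of those 14, 9 rose, where 12 of the 45 were called. Of the other motifs searched on both strands, TTCNNGAA was held by 8.52% of all promoters. TGANNNNGC, the core of the antioxidant element, was held by 58.7% of 46 proteasome symbols and 45.0% of all symbols, and CACGTG, the E-box of the clock, by 25.0% of 16 clock symbols and 8.09% of all. Of these 4 clock symbols 1 was called, a fall, where 7 of the 16 were called. These matches are descriptions of letters in a window and do not show that a factor was bound there. The lists themselves were chosen with earlier results of these data known.

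Of 13955 genes tested, 1520 passed a false discovery rate of 0.05 (10.9%), 819 higher (5.87%) and 701 lower (5.02%) after dexamethasone. Changes were mostly small. The median size among the calls was 0.56 on the log2 scale, 99 genes rose and 139 fell by 2-fold or more, and the median over all tested genes was -0.001. The 5 dexamethasone and 3 saline libraries did not overlap in 2210 genes (15.8%), which included 1219 of the 1520 calls (80.2%). Tests are edgeR quasi-likelihood tests adjusted over all 13955 genes, log2 fold changes are dexamethasone minus saline, and ± beside one is its standard error. Without the ML1716 libraries 1389 genes passed, and 1029 of the 1520 calls were among them (67.7%). No call passed in the opposite direction in any of the other settings tried, although leaving out saline replicate 2 or 3 brought the count to 786 or 897. Upper-quartile scaling moved the balance of the calls to 634 higher and 866 lower (42.3% higher, against 53.9%).

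**Figure D2:**
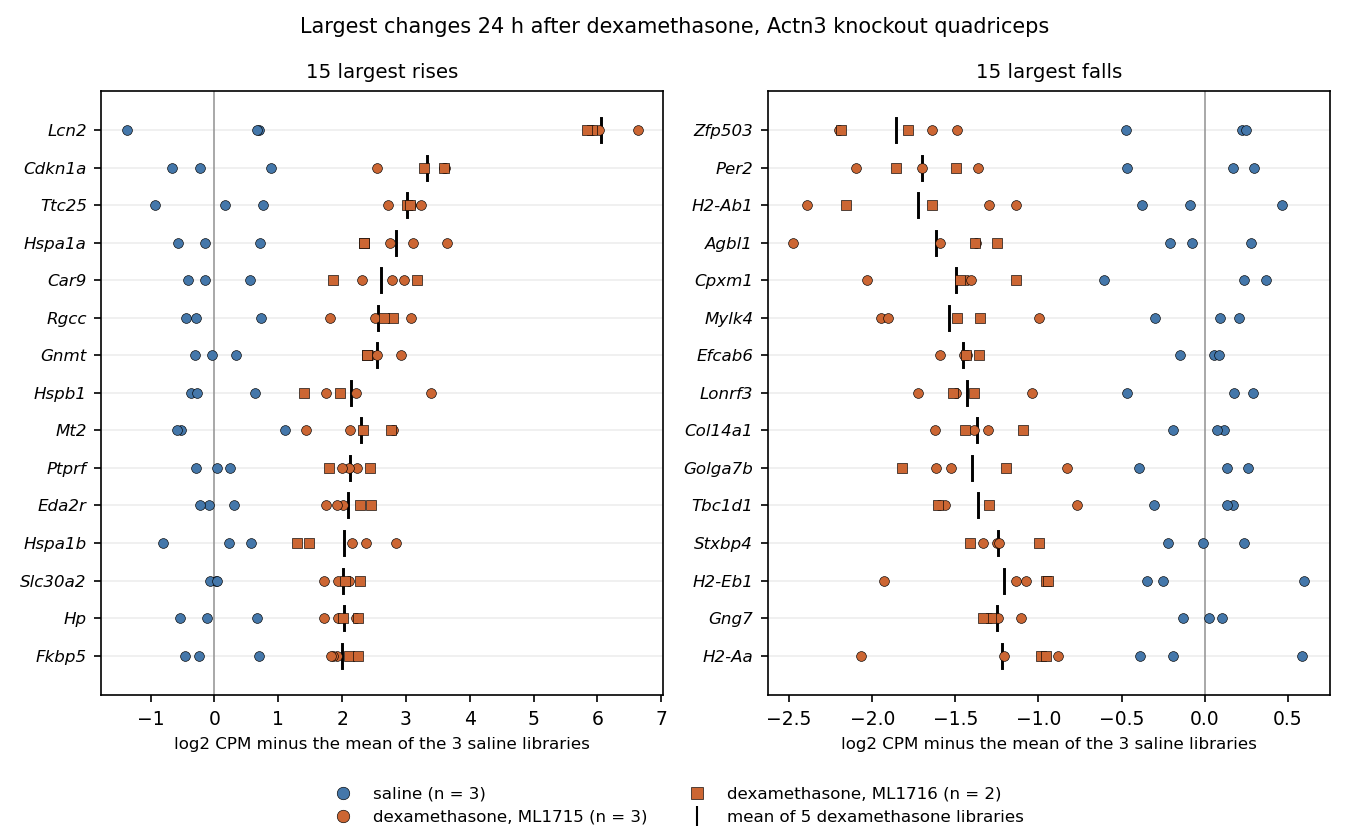
The 15 largest rises (left) and falls (right) among called genes whose groups did not overlap and whose mean log2 CPM was at least 1. Each point is a library, on the x axis as log2 CPM minus the mean of the 3 saline libraries, and the bar is the mean of the 5 dexamethasone libraries; in the fitted values Lcn2 rose by 5.81 log2 units and the other 14 by 1.91 (Fkbp5) to 3.22 (Cdkn1a), and the falls run from -1.87 (Zfp503) to -1.24 (H2-Aa).

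Lcn2, the iron-siderophore binding lipocalin of the acute phase response, had the largest of the 15 leading rises. Its level was 1.66, 0.394 and 1.62 CPM in the 3 saline libraries and 61.7, 66.3, 101, 61.2 and 58 CPM in the 5 dexamethasone libraries (log2 fold change 5.81 ± 0.51, adjusted p = 3.79e-09). Every dexamethasone library stood far above every saline library, and replicate 3 was the highest. Pnmt, the enzyme that makes adrenaline from noradrenaline, went from 0.249, 0.219 and 0.811 to 5.46, 5.01, 4.08, 4.28 and 4.23 CPM (log2 fold change 3.39 ± 0.58, adjusted p = 0.000208), again with no overlap at a low level. Cdkn1a encodes p21, an inhibitor of cyclin-dependent kinases. It was measured at 31.9, 14.7 and 10.9 CPM after saline and 211, 208, 100.2, 167 and 208 CPM after dexamethasone (log2 fold change 3.22 ± 0.44, adjusted p = 9.89e-06), so the lowest treated library, replicate 3, was still well above the highest control, replicate 1. Fkbp5, a co-chaperone that lowers the receptor's affinity for hormone, rose from 79.3, 35.5 and 41.1 to 185, 177, 173, 210.2 and 232 CPM (log2 fold change 1.91 ± 0.26, adjusted p = 8.45e-06), where saline replicate 1 was the highest control. Rgcc, a regulator of the cell cycle, rose from 18.1, 8.94 and 7.95 to 62.5, 38, 91.7, 75.3 and 68.4 CPM (log2 fold change 2.53 ± 0.29, adjusted p = 7.19e-07).

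Of 34 glucocorticoid target genes tested, 9 were higher and 4 lower at 24 h, 38.2% of the list against 10.9% of all genes, while their median log2 fold change of -0.05 was close to the median of all genes. At 3 h the same 34 genes had 30 rises and no fall, with a median of 2.11. This list, like the others, was chosen with earlier results of these data known, so its shares at both times are not independent of them. Besides the 5 genes above, the rises were those of the metal-binding metallothioneins Mt2 (log2 fold change 2.14 ± 0.42, adjusted p = 0.000977) and Mt1 (log2 fold change 1.10 ± 0.33, adjusted p = 0.0264), Odf3l2, an outer dense fibre family member (log2 fold change 1.17 ± 0.34, adjusted p = 0.0232), and the transglutaminase Tgm2 (log2 fold change 0.37 ± 0.11, adjusted p = 0.0328). Reads of Mt2 are uncertain, since 73.5% of its exon bases are shared with the gene model Gm45774 in the GENCODE annotation. For Tgm2, 21.8% are shared with Gm20412 and Rprd1b. Reads may have been counted on another annotation, for these and for the exon shares given below. Calls of Odf3l2 ended without saline replicate 2 (adjusted p = 0.181) or 3 (adjusted p = 0.0936), those of Mt1 and Tgm2 without either of these (adjusted p = 0.184 and 0.101 for Mt1, 0.18 and 0.0826 for Tgm2) or without dexamethasone replicate 3 (0.081 and 0.0706), and that of Tgm2 also without dexamethasone replicate 5 (0.0582).

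The other 4 calls were falls, in genes that the receptor is known to switch on. Sgk1, a kinase of the insulin and salt-handling pathways, stood at 176, 196 and 178 CPM after saline and at 75.8, 79.8, 144, 77.1 and 65.5 CPM after dexamethasone (log2 fold change -1.05 ± 0.28, adjusted p = 0.0131). Replicate 3 was the highest treated library, and the groups did not overlap. The call did not pass without saline replicate 2 (adjusted p = 0.0582). Fam107a, an actin-binding stress-response gene, fell from 3.98, 4.91 and 4.17 to 1.62, 2.69, 1.67, 2.49 and 1.54 CPM (log2 fold change -1.13 ± 0.18, adjusted p = 0.00011), with all treated libraries below all controls. The arrestin-domain gene Arrdc3 (log2 fold change -0.95 ± 0.21, adjusted p = 0.00284) and the clock repressor Per1 (log2 fold change -1.03 ± 0.19, adjusted p = 0.000584) were the others that fell. No change passed the test in the remaining 21 genes, among them the anti-inflammatory leucine zipper Tsc22d3 at 184, 234 and 210.0 CPM after saline and 163, 193, 161, 189.8 and 164 CPM after dexamethasone (adjusted p = 0.24). The NF-kB inhibitor Nfkbia (log2 fold change -0.28, adjusted p = 0.284), the metabolic factor Klf15 (-0.09, 0.766), the mTORC1 brake Ddit4 (-0.45, 0.392) and the pyruvate dehydrogenase kinase Pdk4 (-0.15, 0.828) also missed it. The receptor gene Nr3c1 itself was at 116, 149.5 and 142 CPM and 129, 124, 110.5, 167 and 135 CPM, overlapping ranges (adjusted p = 0.9).

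Proteins destined for breakdown are tagged with ubiquitin by ligases and then degraded in the 26S proteasome, a 20S core of alpha and beta rings capped by 19S particles. Among 22 ubiquitin ligase genes linked to muscle wasting, 5 rose (22.7%, against 5.87% of all genes) and none fell. Trim63 encodes MuRF1, which tags contractile proteins. It stood at 152, 209 and 174 CPM after saline and at 316, 550.1, 293, 531 and 544 CPM after dexamethasone (log2 fold change 1.32 ± 0.27, adjusted p = 0.00136), and the groups were apart, with dexamethasone replicates 1 and 3 below the other three. Fbxo32, which encodes atrogin-1, showed the same 2 libraries lowest, with 201, 280.5 and 300.5 CPM after saline against 442, 740.2, 336, 739.6 and 739 CPM (log2 fold change 1.20 ± 0.32, adjusted p = 0.0127). Smaller rises were those of Fbxo30 (log2 fold change 0.58 ± 0.15, adjusted p = 0.0109), Trim54, the MuRF3 ligase (log2 fold change 0.51 ± 0.12, adjusted p = 0.0055), and Mdm2, the ligase of p53 (log2 fold change 0.34 ± 0.11, adjusted p = 0.0407). Trim54 shares 26.6% of its exon bases with a gene model. The count was 3 without saline replicate 1 or 3. In addition 1 ligase fell without saline replicate 3 or dexamethasone replicate 3. Without the ML1716 libraries 3 of the 5 passed, Fbxo30 and Mdm2 not (adjusted p = 0.102 and 0.106). Fbxo32 did not pass without saline replicate 1 (adjusted p = 0.0761), Fbxo30 without saline replicate 3 (0.0849), and Mdm2 without any 1 saline library (0.0511 to 0.184) or without dexamethasone replicate 1 or 4 (0.0634 and 0.118).

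Of 36 genes for constitutive 26S subunits, 18 rose and none fell, where 5.87% of all genes rose. All 36 values were above 0 with a median of 0.32. By part of the particle, 6 of 7 alpha-ring genes, 3 of 7 beta-ring genes, 1 of 6 base ATPases (Psmc2) and 8 of 16 non-ATPase subunits rose. Psma1 of the alpha ring was at 55.6, 47.8 and 49 CPM after saline and 77.2, 66.1, 72.2, 102 and 111 CPM after dexamethasone (log2 fold change 0.75 ± 0.15, adjusted p = 0.00106), and Psma5 of the same ring at 24.3, 21.7 and 25.9 and 33.7, 34.7, 33, 52.8 and 49.2 CPM (log2 fold change 0.76 ± 0.16, adjusted p = 0.00143). In both genes the 2 ML1716 libraries were the highest, and the other 3 treated libraries also lay above every control. Psmd8 of the 19S cap had the opposite order, with 173, 168 and 167 CPM after saline and 272, 232, 329.9, 215 and 224 CPM after dexamethasone (log2 fold change 0.59 ± 0.12, adjusted p = 0.00159) and the ML1716 libraries lowest among the treated. Psmc2 hardly varied within groups, at 139, 127 and 134 CPM and 174, 186, 175, 182 and 192 CPM (log2 fold change 0.45 ± 0.08, adjusted p = 0.000252).

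**Figure D3:**
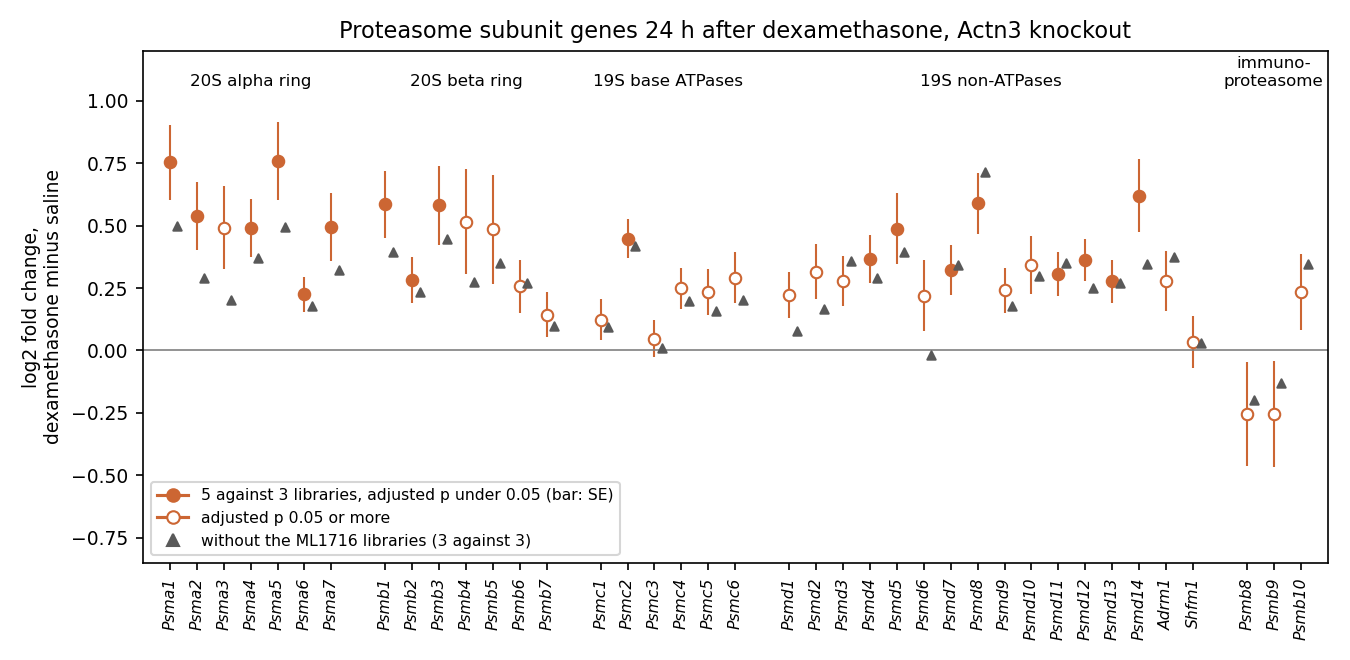
Log2 fold changes (dexamethasone minus saline, y axis) of proteasome subunit genes by part of the particle, with standard errors; filled circles passed an adjusted p of 0.05, and triangles are the values without the ML1716 libraries. The circles of all 36 constitutive subunits lie above 0, while Psmb8 and Psmb9 of the immunoproteasome lie below it without passing the test.

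Immunoproteasome subunits, which replace catalytic beta subunits where interferon acts, gave no call in 3 tested genes (median -0.26). The 6 assembly chaperones and 5 activator or inhibitor genes gave none either, where 5.87% of all genes rose. Their medians were 0.195 and 0.097, and all 6 assembly chaperones were above 0. Without the ML1716 libraries, the constitutive list still had 18 rises with a median of 0.28, and with the name series as a covariate 15. Without saline replicate 2 only 7 subunits passed; leaving out any other library gave 14 to 22. Ubiquitin-conjugating Ube2h rose from 49.8, 61.1 and 56 to 74.2, 84.9, 70.7, 82.7 and 94.1 CPM (log2 fold change 0.55 ± 0.09, adjusted p = 0.000158), while the 4 ubiquitin genes gave no call. Of 41 autophagy and lysosome genes 6 rose and none fell, 14.6% against 5.87% of all genes, and 8 rose without the ML1716 libraries. The count was 4 without saline replicate 3, and 5 without saline replicate 2 or dexamethasone replicate 5. Atg13, a scaffold of the kinase complex that starts autophagy, went from 39.9, 40.8 and 42 to 57.6, 61.5, 62.3, 62.9 and 66.9 CPM (log2 fold change 0.60 ± 0.09, adjusted p = 3.92e-05) with every treated library above every control. The phosphoinositide reader Wipi2 (log2 fold change 0.32 ± 0.08, adjusted p = 0.00566), the mitophagy receptor Bnip3 (log2 fold change 0.60 ± 0.13, adjusted p = 0.00296) and the lysosomal protease Ctsl (log2 fold change 0.62 ± 0.13, adjusted p = 0.00126) rose too, each with the groups apart. Bnip3 and Ctsl share 22.3% and 26.8% of their exon bases with gene models.

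Insulin and insulin-like growth factors promote protein synthesis through PI3 kinase, AKT and mTORC1, and hold back the FoxO factors that drive the wasting ligases. In this list of 41 genes 4 rose and 7 fell (9.76% and 17.1%, against 5.87% and 5.02% of all genes). There were 5 falls without the ML1716 libraries, 4 without saline replicate 2 or 3, and 8 rises without dexamethasone replicate 3. Foxo1 was lower, at 33.9, 28.7 and 33 CPM after saline and 22.1, 23.2, 21.7, 22.5 and 19.7 CPM after dexamethasone (log2 fold change -0.55 ± 0.15, adjusted p = 0.0173), with no overlap. Foxo6 was lower, at 4.23, 3.37 and 4.09 CPM after saline and 2.52, 2.56, 2.02, 1.36 and 1.32 CPM after dexamethasone (log2 fold change -0.97 ± 0.27, adjusted p = 0.0183), and Foxo3 did not pass (-0.14, adjusted p = 0.648). Igfbp5, the binding protein that holds insulin-like growth factors near the fibre, fell from 613, 954 and 1011 to 388, 496, 219, 428 and 307 CPM (log2 fold change -1.22 ± 0.22, adjusted p = 0.000363), the growth factor gene Igf1 itself being at 42.9, 45.3 and 42 CPM and 44.1, 33, 37.4, 42.6 and 34.8 CPM (adjusted p = 0.616). Grb14, an adaptor that blocks the insulin receptor, fell by 1.01 ± 0.20 on the log2 scale (adjusted p = 0.00102), and the mTOR-binding inhibitor Deptor by 0.44 ± 0.12 (adjusted p = 0.0128). The insulin receptor Insr (log2 fold change 0.46 ± 0.11, adjusted p = 0.00678), the PI3 kinase subunit Pik3ca (log2 fold change 0.70 ± 0.12, adjusted p = 0.000307) and the glycogen synthase kinase Gsk3b (log2 fold change 0.68 ± 0.16, adjusted p = 0.00593) were higher.

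Eif4ebp1, which represses cap-dependent translation when mTORC1 is inactive, rose from 18.5, 16.2 and 24.5 CPM to 36.4, 40.9, 36.5, 28 and 41.3 CPM (log2 fold change 0.89 ± 0.18, adjusted p = 0.00135). Foxo1 did not pass without saline replicate 1 or 3 (adjusted p = 0.0727 and 0.0693), Foxo6 without these or dexamethasone replicate 5 (0.0675, 0.0692 and 0.0505) or without the ML1716 libraries (0.105), Insr without saline replicate 3 (0.0674) and Deptor without saline replicate 2 (0.0845). Of 22 genes of the myostatin and activin system, whose ligands limit muscle growth, 3 rose and 2 fell (13.6% and 9.09%, against 5.87% and 5.02% of all genes). There were 2 rises without the ML1716 libraries and 1 without saline replicate 1 or 2 or dexamethasone replicate 2. Myostatin itself, Mstn, stood at 44.9, 64.6 and 57.5 CPM and 58.3, 65.8, 48.8, 66.7 and 64.3 CPM, in overlapping ranges (adjusted p = 0.686). The receptor Tgfbr1 rose (log2 fold change 0.63 ± 0.13, adjusted p = 0.00117), while the receptor Acvr1b (log2 fold change -0.60 ± 0.12, adjusted p = 0.000942) and the latent growth factor binding protein Ltbp4 (log2 fold change -0.69 ± 0.14, adjusted p = 0.00102) fell.

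Heat shock proteins refold damaged proteins, and several of them also hold the glucocorticoid receptor. Of 53 chaperone genes 14 rose and none fell, 26.4% against 5.87% of all genes, with a median of 0.27. Hspa1a, an inducible Hsp70, stood at 3.11, 1.71 and 1.27 CPM after saline and 23.5, 12.8, 16.3, 9.64 and 9.61 CPM after dexamethasone (log2 fold change 2.83 ± 0.54, adjusted p = 0.000744), and its near-identical neighbour Hspa1b at 3.02, 2.37 and 1.16 CPM and 14.6, 8.98, 10.5, 4.94 and 5.64 CPM (log2 fold change 2.05 ± 0.54, adjusted p = 0.0114). How reads were divided between these copies is uncertain. In both, the 5 treated libraries lay above the 3 controls and the ML1716 libraries were the lowest of the treated. The small heat shock protein gene Hspb1 had 59.7, 29.9 and 31.9 CPM and 179.5, 129, 402, 102 and 150.1 CPM (log2 fold change 2.25 ± 0.39, adjusted p = 0.000245), with replicate 3 the highest. Other rises in the list were those of Hsp90aa1, the inducible Hsp90 that holds the receptor (log2 fold change 1.39 ± 0.31, adjusted p = 0.00332), the Hsp40 Dnaja1 (log2 fold change 0.76 ± 0.17, adjusted p = 0.00297) and the constitutive Hsc70 gene Hspa8 (log2 fold change 0.63 ± 0.16, adjusted p = 0.00895).

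The receptor's own chaperones and co-chaperones gave 5 rises in 10 genes, where 5.87% of all genes rose. They were Fkbp5, Hsp90aa1, Dnaja1, Hspa8 and Ptges3, the p23 protein. Of these, Hsp90aa1, Dnaja1 and Hspa8 were already counted in the chaperone list above, and Fkbp5 among the glucocorticoid targets. Counts in the chaperone list moved with the controls, with 6 rises left without saline replicate 2, 5 without saline replicate 3, and 16 without the ML1716 libraries; Hspa1b and Hspa8 did not pass without saline replicate 3 (adjusted p = 0.0822 and 0.113). Saline replicate 1 had the highest values of Hspa1a, Hspb1 and Hsp90aa1 among the controls.

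**Figure D4:**
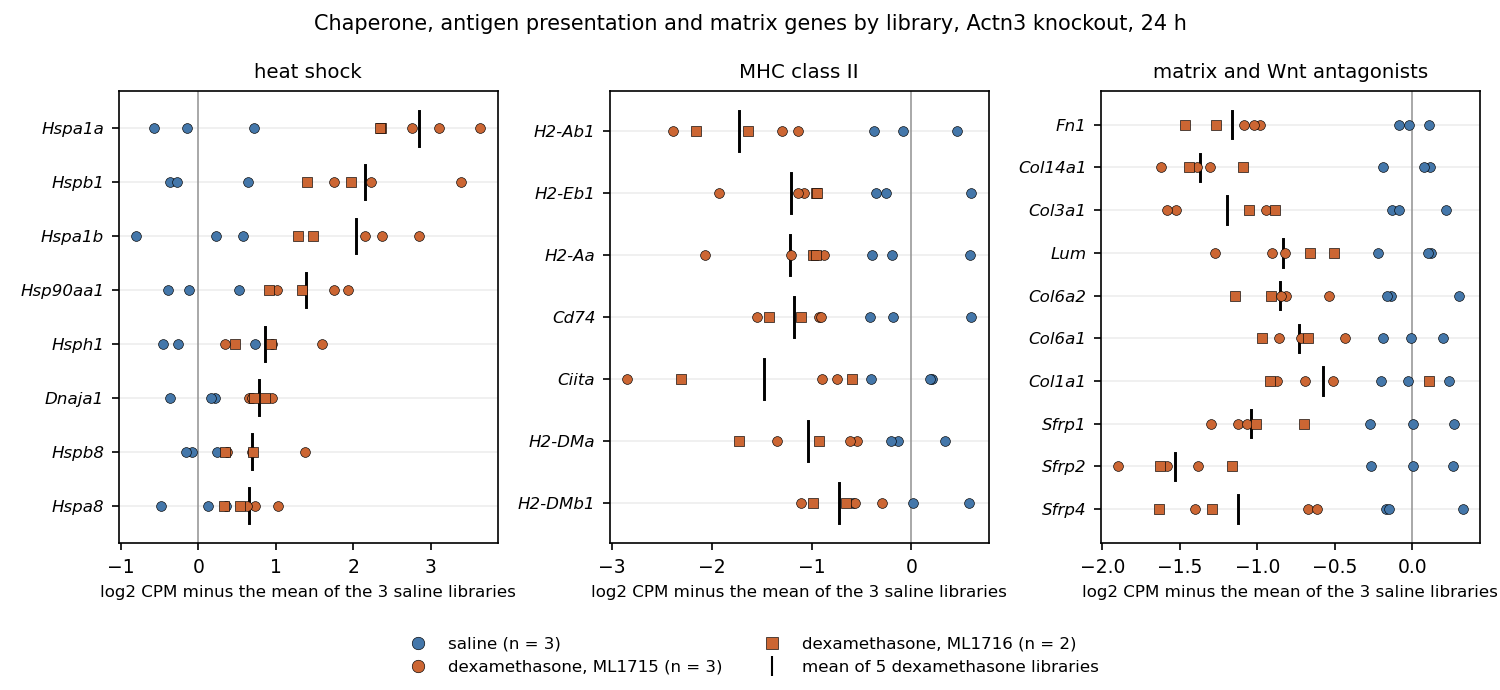
Heat shock, MHC class II and matrix genes by library, as log2 CPM minus the mean of the 3 saline libraries (x axis); blue points are saline, orange circles dexamethasone ML1715, orange squares dexamethasone ML1716, and bars the means of the 5 treated libraries. Hspa1a lies highest of the heat shock genes, and all treated libraries lie left of all controls for H2-Ab1, H2-Aa, Cd74, Fn1 and Col14a1, but not for H2-DMb1 and Col1a1.

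Over 28 tested genes of cell-cycle control and the p53 pathway 6 rose and 4 fell (21.4% and 14.3%, against 5.87% and 5.02% of all genes). The counts were 4 and 4 without the ML1716 libraries and 3 and 3 without saline replicate 2. Among 7 cell-cycle inhibitors Cdkn1a rose and Cdkn1c, which encodes the related p57, fell. Cdkn1c stood at a mean of 17.4 ± 0.228 CPM (SD, n = 3) after saline and 10.6 ± 2.13 CPM (SD, n = 5) after dexamethasone (log2 fold change -0.71 ± 0.16, adjusted p = 0.00418). Its groups did not overlap, and 30.7% of its exon bases are shared with a gene model. The 14 genes of the p53 pathway gave 5 rises (35.7%) and no fall. The rises were 3 without the ML1716 libraries, dexamethasone replicate 4 or saline replicate 3, and 2 without saline replicate 2. In addition 1 gene fell without dexamethasone replicate 3 or saline replicate 3. Eda2r, a receptor of the tumour necrosis factor family and a p53 target, went from 27.7, 36.5 and 25.1 to 119, 111, 99, 143 and 160.0 CPM (log2 fold change 2.09 ± 0.27, adjusted p = 3.79e-06), with the groups far apart. Trp53, the p53 gene, rose by less, from 10.9, 11.4 and 10.5 to 15.7, 14.5, 17.7, 12.8 and 16.5 CPM (log2 fold change 0.50 ± 0.11, adjusted p = 0.00249), and Bax, which permeabilises mitochondria in apoptosis, rose by 0.68 ± 0.17 (adjusted p = 0.00792, and 0.0576 without saline replicate 2). The 3 falls in 7 genes of dividing cells were at low counts. Mki67, the Ki-67 proliferation marker, was at 1.45, 2.32 and 1.2 CPM in the controls and 0.33, 0.311, 0.0704, 0.235 and 0.132 CPM in the treated libraries (log2 fold change -2.94 ± 0.44, adjusted p = 4.04e-05). Cyclin A2, Ccna2, fell by 1.90 ± 0.40 on the log2 scale (adjusted p = 0.00167) and the topoisomerase Top2a by 1.62 ± 0.44 (adjusted p = 0.0139, and 0.229 without saline replicate 2). In muscle made mostly of fibres that do not divide, fewer dividing cells and less RNA in each cannot be told apart in these data, and this holds for every gene of a minor cell type below.

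The circadian clock runs on a loop in which CLOCK and BMAL1 (Arntl) switch on the Per and Cry repressors and output factors. Of 19 clock genes 2 were higher and 6 lower (10.5% and 31.6%, against 5.87% and 5.02% of all genes). Without the ML1716 libraries 3 were higher and 6 lower. Per2 was among the clearest falls in the whole comparison, with 31.6, 53.7 and 49.2 CPM after saline and 10.2, 17, 13.5, 12.1 and 15.5 CPM after dexamethasone (log2 fold change -1.72 ± 0.19, adjusted p = 3.89e-07). Per1 was at 48.1, 93.8 and 97.2 CPM and 27, 55.7, 40.6, 34.8 and 37.7 CPM, where the lowest control and the highest treated library overlapped. Per3 fell by 0.71 ± 0.19 (adjusted p = 0.0152). The output factors Hlf (log2 fold change -0.90 ± 0.15, adjusted p = 0.00018) and Dbp (log2 fold change -0.85 ± 0.27, adjusted p = 0.0409) and the repressor Nr1d2 (log2 fold change -0.30 ± 0.10, adjusted p = 0.0476) were lower as well. Among the activators, Clock rose from 46.6, 44.6 and 36 to 90.5, 71.4, 67.6, 95.5 and 75.2 CPM (log2 fold change 0.92 ± 0.15, adjusted p = 0.000164) with no overlap, and Arntl (log2 fold change 1.06 ± 0.33, adjusted p = 0.0345) rose with some. Nr1d1, which represses Arntl, did not pass (log2 fold change 0.69 ± 0.23, adjusted p = 0.0507), although all 5 treated values were above the controls. It passed in 8 of 21 other settings, among them the fit without the ML1716 libraries (adjusted p = 0.0174). Per3 did not pass without saline replicate 2 or 3 (adjusted p = 0.0867 and 0.085), Arntl without either of these or dexamethasone replicate 1 or 4 (0.148, 0.181, 0.0755 and 0.0541), and Dbp without any 1 of 7 libraries (0.0539 to 0.127, all but dexamethasone replicate 5) or without both ML1716 libraries (0.0882). Nr1d2 did not pass without saline replicate 2 or 3 or without dexamethasone replicate 1, 2, 3 or 5 (0.071 to 0.244). Without saline replicate 2 or 3 the list had 1 rise and 3 falls each, and without dexamethasone replicate 1 it had 1 rise and 4 falls. The labels give hours after injection and no clock hour.

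Of 33 glucose and glycogen genes 4 rose and 3 fell (21.2% called against 10.9% of all genes). Of 55 fatty acid genes 2 rose and 4 fell (10.9%), and of 44 genes of amino acid and polyamine handling 6 rose and 2 fell (18.2%). Pfkfb3, which makes the strongest activator of phosphofructokinase, stood at 408, 332 and 419.5 CPM after saline and 1250, 1487, 551, 1172 and 1354 CPM after dexamethasone (log2 fold change 1.59 ± 0.39, adjusted p = 0.00747). Replicate 3 was far below the other treated libraries and still above the controls, and without saline replicate 2 the adjusted p was 0.0535. Slc2a4, the insulin-responsive glucose transporter GLUT4, was higher (log2 fold change 0.49 ± 0.11, adjusted p = 0.00349), and Hk2, which traps glucose in the cell, fell from 616, 505 and 486 to 331, 284, 353, 292 and 362 CPM (log2 fold change -0.72 ± 0.17, adjusted p = 0.0055). In glycogen metabolism the branching enzyme Gbe1 (log2 fold change 0.90 ± 0.17, adjusted p = 0.000494) and the phosphatase targeting subunit Ppp1r3c (log2 fold change 1.29 ± 0.31, adjusted p = 0.00523, and an adjusted p of 0.0574 without saline replicate 3) were higher. None of 11 glycolytic enzyme genes passed, and of 55 nuclear respiratory chain genes 2 did, none of them without the ML1716 libraries, without dexamethasone replicate 4 or 5, or without any 1 saline library. Slc38a4, an amino acid transporter, rose from 107, 87.5 and 89.5 to 318, 194, 200.4, 229 and 194 CPM (log2 fold change 1.26 ± 0.18, adjusted p = 1.61e-05), and the exchanger Slc7a8 fell from 36.8, 24.7 and 25.3 to 17.6, 15.4, 14.5, 14.1 and 11.3 CPM (log2 fold change -0.98 ± 0.19, adjusted p = 0.00086), both without overlap. Sat1, the enzyme that acetylates polyamines for export, rose by 0.78 ± 0.18 (adjusted p = 0.00486), with the ML1716 libraries highest. In lipid handling, the droplet protein gene Plin5 was higher (log2 fold change 1.21 ± 0.32, adjusted p = 0.0115) and the oxidative coactivator Ppargc1b lower (log2 fold change -0.90 ± 0.25, adjusted p = 0.0169). Plin5 did not pass without saline replicate 2 or 3 (adjusted p = 0.115 and 0.0809), and Ppargc1b without saline replicate 1 or 2 (0.0865 and 0.11) or the ML1716 libraries (0.0599). The fatty acid list had 2 falls without saline replicate 1, without dexamethasone replicate 3 or 5, and without both ML1716 libraries. Its rises were 1 without saline replicate 1 or 3 or dexamethasone replicate 2 or 4, and none without saline replicate 2. The amino acid list had 3 rises without saline replicate 2, and 1 fall without the ML1716 libraries, dexamethasone replicate 4 or 5, or saline replicate 1 or 2.

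In the protein-making machinery, 1 of 62 cytosolic ribosome genes rose (1.61%, against 5.87% of all genes), although 56 values were above 0 with a median of 0.26. Of 28 translation factors 7 rose (25.0%) and none fell. Eif4a1, the helicase that unwinds messenger RNA before scanning, was among these (log2 fold change 0.62 ± 0.12, adjusted p = 0.00102). The count of translation factors was 3 with the name series as a covariate, 4 without the ML1716 libraries or dexamethasone replicate 4 alone, 3 without dexamethasone replicate 5 or saline replicate 3, and 2 without saline replicate 2. The ribosome count was 6 without the ML1716 libraries, 4 without dexamethasone replicate 1, and 3 without dexamethasone replicate 3. It was 2 without dexamethasone replicate 2 or saline replicate 3, and 0 without saline replicate 1 or 2.

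MHC class II molecules display peptides to helper T cells and are made mainly by professional antigen-presenting cells. Here 6 of 7 class II genes were lower and none higher, 85.7% against 5.02% of all genes, with a median log2 fold change of -1.24. H2-Ab1 stood at 24.2, 29.6 and 43.3 CPM after saline and 12.8, 14.3, 5.98, 7.05 and 10.1 CPM after dexamethasone (log2 fold change -1.69 ± 0.25, adjusted p = 2.81e-05), and its partner chain H2-Aa at 22.5, 25.9 and 44.3 and 12.8, 16.1, 7.04, 14.9 and 15.2 CPM (log2 fold change -1.24 ± 0.22, adjusted p = 0.000399). Cd74, the invariant chain, was at 47, 40.0 and 81.2 CPM and 28.2, 28.6, 18.4, 24.9 and 19.9 CPM (log2 fold change -1.23 ± 0.21, adjusted p = 0.000195). In each of these, saline replicate 3 was highest, dexamethasone replicate 3 was lowest and the groups did not overlap. H2-Eb1 (log2 fold change -1.25 ± 0.22, adjusted p = 0.000296), the loading factor H2-DMa (log2 fold change -0.98 ± 0.22, adjusted p = 0.00345, and an adjusted p of 0.0551 without saline replicate 3) and Ciita, the class II transactivator (log2 fold change -1.27 ± 0.31, adjusted p = 0.00715), were lower too, and H2-DMb1 did not pass (-0.78, adjusted p = 0.0707). The count was also 6 without the ML1716 libraries.

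No change passed in 9 MHC class I genes (median -0.06). Of 26 interferon factors and targets 6 were lower (23.1%, against 5.02% of all genes) and none higher, 5 of them guanylate-binding proteins, for example Gbp5 (log2 fold change -0.95 ± 0.20, adjusted p = 0.00198) and Gbp4 (log2 fold change -0.82 ± 0.23, adjusted p = 0.0188, and 0.147 without saline replicate 3). The 6 became 5 without the ML1716 libraries, 3 without saline replicate 2 and 1 without saline replicate 3. The 12 macrophage markers, none of them at 0, summed to 270 to 338 CPM after saline and 250 to 285 CPM after dexamethasone, overlapping ranges, and 1 of the 12 passed the test, the haemoglobin scavenger receptor Cd163, from 40.7, 50.03 and 42.8 to 24.9, 29.5, 22.7, 30.7 and 27.4 CPM (log2 fold change -0.72 ± 0.14, adjusted p = 0.000796). Of the 12 macrophage log2 fold changes 2 were above 0 (median -0.18), where 49.8% of all genes were above 0. Lymphocyte markers were scarce, with sums of 1.18 to 1.79 CPM and 0.287 to 0.783 CPM over 8 genes, and these did not overlap. Only 2 of the 8 had enough counts to be tested, and none of the 2 was called. Erythroid markers were also low and apart, with sums of 7.07 to 9.34 CPM after saline and 3.27 to 5.42 CPM after dexamethasone over 6 genes. The list holds 8 erythroid genes, of which only these 6 were among the genes counted, and the 3 haemoglobin genes at 0 are among the 6. The erythroid sum therefore cannot be read as a measure of blood content. Of 3 erythroid markers tested 1 was called lower, the anion exchanger gene Slc4a1, at 0.332, 0.0438 and 0.463 CPM and 0.03, 0, 0.0235, 0 and 0.0441 CPM (adjusted p = 0.0308). Its adjusted p was 0.0822 without the ML1716 libraries, and 0.0505 to 0.175 without saline replicate 1 or 3 or dexamethasone replicate 2, 3 or 4. Neutrophil markers summed to at most 2.69 CPM in any library, with Mpo listed at 0 in all 8. The part of these cells in the falls of class II and interferon genes was not tested.

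Of 13 acute phase and metal genes 6 rose (46.2%, against 5.87% of all genes) and none fell. Hp, haptoglobin, rose from 25.2, 10.9 and 14.6 to 60.5, 74, 52.5, 64.3 and 75.8 CPM (log2 fold change 1.95 ± 0.33, adjusted p = 0.000184), and the protease inhibitor Serpina3n from 12.3, 4.47 and 13 to 30.2, 35.3, 23.3, 32.5 and 32.7 CPM (log2 fold change 1.62 ± 0.31, adjusted p = 0.000673). Slc30a2, a transporter that loads zinc into vesicles, was one of the most even changes, with 10.5, 9.73 and 10.6 CPM against 33.7, 39.2, 44.1, 42.3 and 49.8 CPM (log2 fold change 2.02 ± 0.19, adjusted p = 1.89e-08). Lcn2, Mt1 and Mt2, described above, were the other rises. These 13 genes belong to an inflammation list of 45 tested genes with 7 rises and 3 falls (15.6% and 6.67%, against 5.87% and 5.02% of all genes). Its 19 cytokine and NF-kB genes gave 1 rise and 1 fall (10.5% called, against 10.9% of all genes). Its 13 chemokines gave 2 falls and no rise (15.4% called). The list had 2 falls without the ML1716 libraries and 1 without any 1 saline library.

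The extracellular matrix around fibres is made largely by fibroblasts. In a list of 73 matrix genes 21 fell and 2 rose, 28.8% lower against 5.02% of all genes, with a median of -0.27. Fibronectin, Fn1, was at 244, 232 and 266 CPM after saline and 125, 116, 122, 89.2 and 103 CPM after dexamethasone (log2 fold change -1.16 ± 0.13, adjusted p = 4.18e-07), with the treated libraries far below the controls. Col14a1, a fibril-associated collagen, went from 24.6, 19.9 and 24 to 8.7, 7.39, 9.22, 8.37 and 10.7 CPM (log2 fold change -1.37 ± 0.17, adjusted p = 2.01e-06), and Col3a1, the reticular fibre collagen, from 241, 306 and 249 to 137, 91.6, 87.9, 127 and 142 CPM (log2 fold change -1.18 ± 0.26, adjusted p = 0.00257). All treated libraries lay below all controls in these genes. Col1a1, by contrast, was at 80.8, 97 and 71.6 CPM and 57.8, 45, 51, 43.6 and 88.8 CPM, where dexamethasone replicate 5 lay among the controls, and did not pass (adjusted p = 0.227). Among proteoglycans Lum, which spaces collagen fibrils, fell (log2 fold change -0.82 ± 0.17, adjusted p = 0.00135), and so did the collagen VI chains Col6a1 (log2 fold change -0.73 ± 0.19, adjusted p = 0.0113) and Col6a2 (log2 fold change -0.85 ± 0.20, adjusted p = 0.00411).

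Wnt antagonists and receptors are in the same list, and 3 of these 8 genes fell (37.5%, against 5.02% of all genes), 2 without the ML1716 libraries. Sfrp2 stood at 3.07, 2.54 and 3.67 CPM and 1.02, 1.17, 0.821, 0.988 and 1.37 CPM (log2 fold change -1.55 ± 0.32, adjusted p = 0.00135), and Sfrp1 at 5.63, 6.83 and 8.18 CPM and 3.12, 3.25, 2.77, 3.39 and 4.19 CPM (log2 fold change -1.05 ± 0.18, adjusted p = 0.000195). Without the ML1716 libraries 17 matrix genes fell and 3 rose, Col6a1 not among them (adjusted p = 0.0568). Leaving out saline replicate 2 or 3 gave 14 falls and no rise each, and leaving out saline replicate 1 gave 4 rises. Col6a1 and Col6a2 did not pass without saline replicate 2 (adjusted p = 0.0838 and 0.0586). The 10 fibroblast markers summed to 2514 to 2639 CPM after saline and 2452 to 2766 CPM after dexamethasone, none at 0; 3 were lower (Lum and Col3a1, which are matrix genes themselves, and Pi16) and 1, Gsn, higher. Of the 10 fibroblast log2 fold changes 2 were above 0 (median -0.18), where 49.8% of all genes were above 0. The 6 tendon markers summed to 289 to 344 CPM and 200 to 275 CPM, ranges that did not overlap, with no member called. The part of fibroblast or tendon cells in the fall of matrix genes was not tested.

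Contractile genes gave 3 rises and 3 falls among 67 (8.96%, against 10.9% of all genes). There was 1 fall without the ML1716 libraries or saline replicate 2 or 3, and none without saline replicate 1 or dexamethasone replicate 4 or 5. Mylk4, a myosin light chain kinase family member outside that list, fell from 2855, 4062 and 3753 CPM to 913, 941, 1764, 1254 and 1381 CPM (log2 fold change -1.51 ± 0.21, adjusted p = 9.59e-06). Myh2, the myosin heavy chain of IIA fibres, was at 2578, 1747 and 2404 CPM and 1073, 1381, 1418, 989 and 899.9 CPM (log2 fold change -0.96 ± 0.28, adjusted p = 0.0252). Its groups did not overlap, but the call ended without saline replicate 1 or 3 (adjusted p = 0.0989 and 0.0855), without dexamethasone replicate 4 or 5 (0.0565 and 0.066) and without both ML1716 libraries (0.0798). Myh4 of IIB fibres, did not pass (log2 fold change -0.37 ± 0.18, adjusted p = 0.176), although its 5 treated values, at 40040, 39300, 44000, 37810 and 44170 CPM, were all below the controls at 56820, 48680 and 53650 CPM. The Z-disc protein genes Pdlim5 (log2 fold change 0.95 ± 0.18, adjusted p = 0.000785) and Myoz1 (log2 fold change 0.45 ± 0.12, adjusted p = 0.0113, and 0.0982 without saline replicate 1) were higher, and Actn2, the relative of Actn3 present in all fibres, was at 1335, 831 and 920.0 CPM and 1098, 973, 2060, 793 and 969.7 CPM (adjusted p = 0.628).

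Other leading genes lie outside these groups. Ptprf, a receptor tyrosine phosphatase known to act on the insulin receptor, had the smallest p of all genes, with 4.81, 5.52 and 3.82 CPM after saline and 21.9, 20.2, 18.7, 16.2 and 25.1 CPM after dexamethasone (log2 fold change 2.12 ± 0.15, adjusted p = 2.27e-11). Gnmt, which uses S-adenosylmethionine to methylate glycine, rose from 0.911, 1.09 and 1.43 to 6.18, 8.5, 6.57, 5.88 and 5.91 CPM (log2 fold change 2.52 ± 0.39, adjusted p = 6.12e-05), and the carbonic anhydrase Car9 from 1.28, 0.789 and 0.656 to 5.97, 4.35, 6.8, 3.15 and 7.85 CPM (log2 fold change 2.63 ± 0.33, adjusted p = 2.33e-06). Both were low in every control. Ttc25, a gene of motile cilia, rose from 0.58, 0.876 and 0.27 to 3.39, 4.87, 4.36, 4.19 and 4.32 CPM (log2 fold change 2.89 ± 0.51, adjusted p = 0.00031). On the falling side, Tbc1d1, which restrains GLUT4 traffic until it is phosphorylated, went from 92.2, 89.6 and 66.2 to 27, 27.7, 47.9, 26.9 and 33.2 CPM (log2 fold change -1.34 ± 0.21, adjusted p = 5.85e-05), and the zinc finger gene Zfp503 from 21.5, 21.9 and 13.2 to 5.91, 6.56, 4.01, 4.04 and 5.33 CPM (log2 fold change -1.87 ± 0.23, adjusted p = 1.7e-06). Stxbp4, a syntaxin-binding protein linked to GLUT4 vesicles, fell from 40.2, 55.2 and 46.5 to 19.7, 18.6, 19.9, 23.5 and 17.6 CPM (log2 fold change -1.25 ± 0.13, adjusted p = 1.59e-07). The remaining leading falls were Agbl1, Cpxm1, Efcab6, Lonrf3, Golga7b and Gng7, between -1.59 and -1.25 on the log2 scale, each with no overlap between the groups; 20.1% of the exon bases of Agbl1 are shared with a gene model.

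The same injection had been sampled at 3 h in other KO mice, with controls of their own, which allows the 2 times to be compared. The dexamethasone effect differed between 24 h and 3 h in 1511 of 13955 genes (10.8%). At 3 h, 2446 of all 13955 genes were called. Of the 1520 genes called at 24 h, 257 were called in the same direction at 3 h (16.9%, or 10.5% of the 2446). Another 106 were called in the opposite direction (6.97% and 4.33%), and 471 had a difference between the times that passed the test. Whether these overlaps exceed chance was not tested. The 8 genes with the smallest p for this difference had all moved at 3 h. Fam107a had log2 fold changes of 3.19 at 3 h and -1.13 at 24 h (difference -4.32 ± 0.25, adjusted p = 7.83e-14). Rnf169, a ubiquitin ligase of the DNA damage response, had 2.92 and 0.00 (difference -2.92 ± 0.18, adjusted p = 4.11e-13), and the endothelial gene Myct1 -2.93 and -0.11 (difference 2.82 ± 0.21, adjusted p = 2.8e-11).

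Nfkbia, Usp54, Map3k6, Rin2 and Lrrc8a completed the 8, all with rises between 1.78 and 3.01 at 3 h, and Lrrc8a shares 68.3% of its exon bases with other gene models. Genes with opposite signs included Foxo1 (1.35 at 3 h and -0.55 at 24 h, adjusted p of the difference 1.34e-07), Sgk1 (1.26 and -1.05, 0.000152), Arrdc3 (1.47 and -0.95, 8.35e-07), Per1 (0.91 and -1.03, 7.68e-06) and Slc7a8 (1.88 and -0.98, 6.33e-09). Pfkfb3 went the other way, lower at 3 h (-1.20) and higher at 24 h (1.59, 0.000393). Eda2r (-0.59 and 2.09, 2.15e-06), Hspa1a (0.65 and 2.83, 0.0427) and Fbxo32 (-0.26 and 1.20, 0.0238) passed as rises at 24 h and not at 3 h, and the difference itself passed. H2-Ab1 (-0.40 and -1.69, 0.0134), Fn1 (-0.15 and -1.16, 0.000311) and Per2 (0.07 and -1.72, 2.51e-05) passed in that way as falls. A difference between the times was not detected for Lcn2 (5.61 and 5.81, 0.923), Cdkn1a (2.71 and 3.22, 0.653), Fkbp5 (2.52 and 1.91, 0.3) or Trim63 (1.93 and 1.32, 0.347). One of the 5 KO dexamethasone libraries of 3 h is named ML1716.

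**Figure D5:**
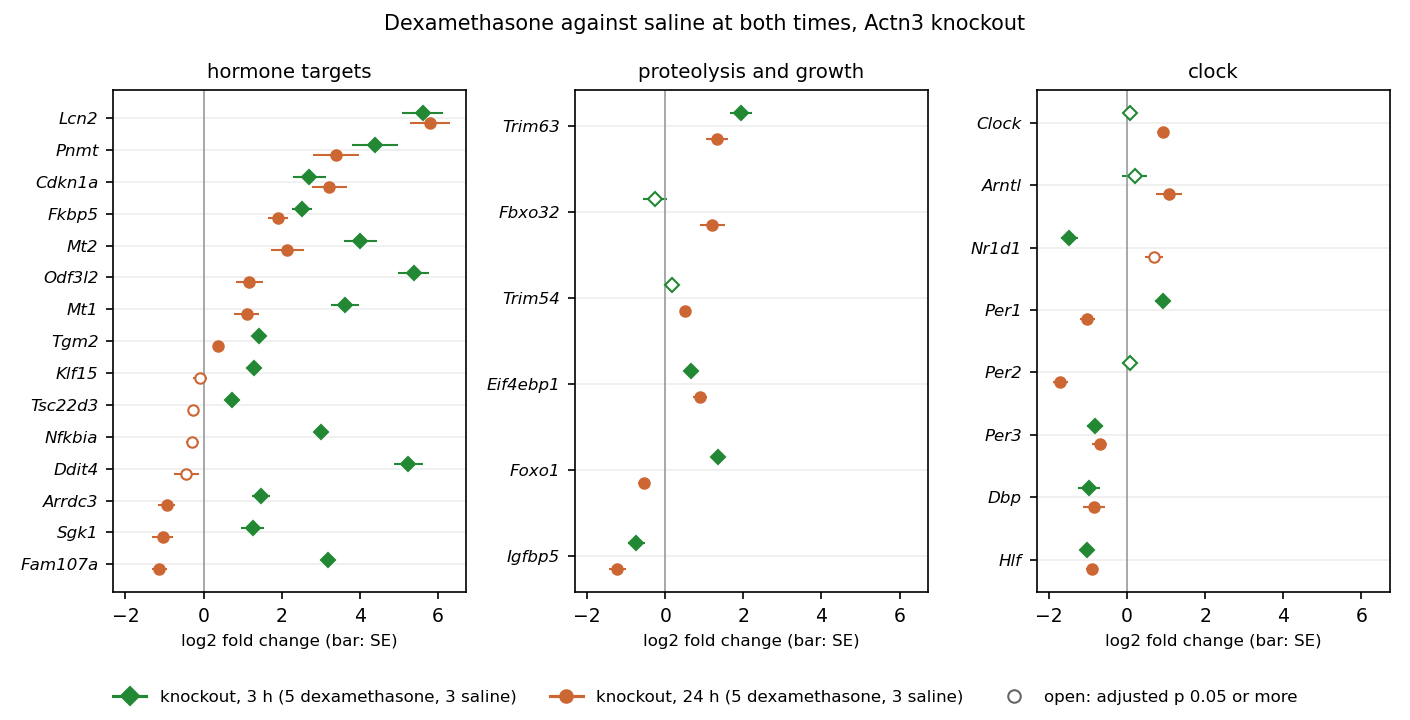
Log2 fold changes with standard errors (x axis) of dexamethasone against saline in knockout muscle at 3 h (green diamonds) and 24 h (orange circles); open symbols have an adjusted p of 0.05 or more. Lcn2, Cdkn1a, Fkbp5 and Trim63 lie right of 0 at both times, while Sgk1, Arrdc3, Fam107a, Foxo1 and Per1 lie right of 0 at 3 h and left of it at 24 h.

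WT muscle at 24 h had its own controls, and the question the series asks is whether alpha-actinin-3 deficiency alters the answer to dexamethasone. No gene of 13955 (0.0%) had a dexamethasone effect at 24 h that differed between KO and WT in the edgeR test, 858 had an unadjusted p under 0.05, and DESeq2 called 3 and limma-voom 1. Closest to the threshold was the gene model 2310022B05Rik, which also had the second smallest p for the KO effect at 24 h. It stood at 20.8, 16.2 and 14.8 CPM after saline and 56.6, 52, 66.2, 52.2 and 47.2 CPM after dexamethasone, with a log2 fold change of 1.67 in KO and 0.75 in WT (difference 0.92 ± 0.17, adjusted p = 0.0546). All 5 KO treated libraries lay above all KO controls. G0s2, an inhibitor of lipolysis, was at 15.8, 11.9 and 12.6 CPM and 47.2, 28.7, 18.6, 30.2 and 46.5 CPM in KO, with log2 fold changes of 1.35 in KO and -0.42 in WT (difference 1.77 ± 0.39, adjusted p = 0.311). Map9, a microtubule-associated protein gene, had 0.00 and -0.92 (difference 0.92 ± 0.21, adjusted p = 0.389). In WT, 1919 of all 13955 genes were called. Of the 1520 calls in KO, 819 were among these, all in the same direction (53.9% of KO calls and 42.7% of WT calls). This number equals the count of rises in KO by coincidence. Whether the overlap exceeds chance was not tested. With no gene passing the edgeR test of the difference, a gene called in 1 genotype alone is not shown to differ between them.

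Side by side, the leading genes had log2 fold changes of 5.81 in KO and 5.09 in WT for Lcn2 (difference 0.72 ± 0.63, adjusted p = 0.81) and of 3.22 and 2.77 for Cdkn1a (difference 0.45 ± 0.52, adjusted p = 0.851). For Trim63 they were 1.32 and 1.78 (difference -0.46 ± 0.35, adjusted p = 0.79), and for Fbxo32 1.20 and 1.87 (difference -0.66 ± 0.41, adjusted p = 0.779). Psma1 had 0.75 and 0.38 (difference 0.37 ± 0.20, adjusted p = 0.777), and the 36 proteasome subunit genes gave 18 rises in KO and 9 in WT with medians of 0.32 and 0.20. The chaperone list gave 14 and 12 rises, the class II genes 6 and 7 falls, the matrix list 21 and 22 falls and the wasting ligases 5 and 9 rises, with no member of any of them called for a difference between the genotypes.

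The authors' deposited table for this comparison holds 12885 genes and calls 3114 of them, 1477 higher and 1637 lower, at an adjusted p of 0.05. Of the 1520 calls made here 1487 are in that table, 1421 are called there with the same sign, and none has the opposite sign. Some named genes that did not pass here, among them Actn3, H2-DMb1, Col1a1 and Myh4, are called lower there. The design behind the deposited table is not given in the sources used here.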

How the data were processed

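RNA sequencing of mouse quadriceps gave read counts per gene symbol for 33 libraries, and these whole-number counts were used as the authors deposited them. STAR, HTSeq and limma 3.40.6 are named with build mm10 in the submitters' processing notes, and the library kit was unstranded per the labels' protocols, so reads of overlapping and antisense genes cannot be told apart. The log2 fold changes and p-values in the authors' deposited table for this contrast come from limma, per the submitters' processing notes, and were used only to compare calls.

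Counts were fitted with edgeR 4.0.16 (R 4.3.3): 8 groups over all 33 libraries, filterByExpr (13955 of 23420 genes left), TMM scaling, quasi-likelihood F tests and Benjamini-Hochberg adjustment over all genes tested, with a false discovery rate of 0.05. All groups entered the fit so that they share 1 estimate of the spread. Standard errors were taken from the F statistic. Levels of single genes are CPM with TMM-scaled totals, and sums over marker genes are CPM with unadjusted totals. Depth was 19.7 M to 42.8 M gene counts in the 8 libraries. The test was run on simulated counts only to check that it worked, which does not measure its error rate in these libraries. DESeq2 1.42.0, limma-voom 3.58.1, other scalings, filters and sample sets, and each library left out were the alternatives.

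Genes were named from fixed target genes, the 15 largest rises and falls, the 4 smallest p-values of each list, the 8 smallest p-values of each difference, and examples from lists described whole; other names were chosen after their values were seen. The comparison and its gene lists were chosen with earlier results of these data known. 1 gene of the lists is not reported here. Promoter sequences are RefSeq's, and shares of exon bases come from the GENCODE annotation. Of the 28 pairs among the 8 libraries, none differed by less than sampling noise (lowest chi-square per degree of freedom 21.9).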

Additional observations from a re-analysis of the deposited data

Results flagged for a closer look

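In 10 of 137 named genes 1 of the 5 dexamethasone libraries stood apart from the other 4 by Dixon's criterion, which chance meets in about 1 of 20 groups. Replicate 3 was that library in 7 of the 10. Its values were 101 CPM for Lcn2, 33.4 for Mt1 and 144 for Sgk1, all high, and 551 for Pfkfb3, 7.04 for H2-Aa, 4.08 for H2-Eb1 and 1.9 for Agbl1, all low. Replicate 4 stood apart for Ltbp4 (56.9 CPM) and Psmb9 (1.22 CPM), and replicate 5 for Usp54 (10.6 CPM).

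The effect of dexamethasone in knockout muscle differed between 24 h and 3 h in 1511 genes by the edgeR test of the difference. Differences below are the log2 fold change at 24 h minus that at 3 h. Among hormone targets the difference was -5.69 for Ddit4, -4.32 for Fam107a, -4.21 for Odf3l2, -3.30 for Nfkbia, -2.88 for Map3k6, -2.52 for Mt1, -2.42 for Arrdc3 and -2.31 for Sgk1. It was -1.94 for Per1, -1.38 for Klf15, -1.06 for Tgm2 and -0.98 for Tsc22d3. Clock genes gave -1.78 for Per2, 0.85 for Clock and 2.17 for Nr1d1. Among growth, proteolysis and stress genes it was -1.89 for Foxo1, 1.46 for Fbxo32, 2.68 for Eda2r and 2.18 for Hspa1a. Fuel genes gave -2.86 for Slc7a8, 3.61 for G0s2 and 2.79 for Pfkfb3. Matrix and antigen presentation genes gave -1.01 for Fn1 and -1.29 for H2-Ab1. The remaining differences were -2.92 for Rnf169, -2.27 for Usp54, -2.07 for Lrrc8a, -1.97 for Rin2 and 2.82 for Myct1.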

How the results depend on the processing

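The count of 1520 genes called in knockout muscle at 24 h was 730 when the 8 libraries were fitted alone, 658 at a false discovery rate of 0.01, and between 786 and 1585 with 1 library left out. No call passed in the opposite direction in any setting. Upper-quartile scaling made 42.3% of the calls rises. Genes called for a difference between the genotypes numbered 1 without the ML1716 libraries, 1 with upper-quartile scaling, 3 with DESeq2 and 1 with limma-voom, and between 0 and 4 with 1 library left out (4 without dexamethasone replicate 3). Genes called for a difference between the times numbered 853 at a false discovery rate of 0.01. The cause of these shifts was not tested, other than that a smaller fit holds fewer libraries and a stricter rate admits fewer genes. Of the 137 genes named, 114 were called, and 79 of these passed in all 21 settings. Ccna2 was 1 more, which passed in the 20 settings in which it was tested. Many of these genes were named for large changes or small p-values in these same libraries, so they are not a sample of all calls. Over all 1520 calls, 45.2% were kept when the 8 libraries were fitted alone, 48.9% without saline replicate 2 and 55.1% without saline replicate 3. The fit without Rn45s was added after seeing the data and also gave 1520 calls. Fits of the genotype difference on knockout libraries alone, and of the time difference on the 8 libraries, could not be made. No paired analysis was possible because replicate numbers do not appear in the labels. At 3 saline libraries, a gene that missed the threshold is not shown to be stable.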
